A study of Mus musculus with 34 samples.

Results

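The decision of a cell to leave the G1 phase and copy its DNA rests on a small set of proteins, and the H3K4me3 signal at the 5′ ends of 10 of their genes, out of 21938 protein-coding genes of the annotation, was examined here. The genes were chosen by name: the D-type cyclins Ccnd1, Ccnd2 and Ccnd3, their kinases Cdk4 and Cdk6, the CDK inhibitors Cdkn1a, Cdkn1b, Cdkn2a and Cdkn2b, and Rb1. H3K4me3 was profiled by CUT&RUN, in which a tethered nuclease cuts the DNA around an antibody bound to chromatin and the short fragments set free are sequenced. Cells were scraped from the villi of normal-appearing small intestine of C57BL/6J mice, 2 wild-type (WT) and 2 ApcMin/+ (APC). Each genotype has 2 replicate libraries, taken here as 1 per mouse. ApcMin/+ mice carry 1 germline copy of Apc with the Min mutation in every cell and develop many intestinal adenomas with age. The labels give the age of all 4 mice as 5 weeks, whereas the methods of the study give another age. The other libraries of the series, including those without a primary antibody, were not analysed here.

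D-type cyclins bind Cdk4 or Cdk6, and the active kinases phosphorylate the retinoblastoma protein encoded by Rb1, which then releases the E2F transcription factors that switch on the genes of DNA synthesis. Inhibitors of the INK4 family, among them p16Ink4a from Cdkn2a and p15Ink4b from Cdkn2b, bind Cdk4 and Cdk6, and inhibitors of the Cip/Kip family, p21 from Cdkn1a and p27 from Cdkn1b, bind cyclin-CDK complexes. In the small intestine cells divide in the crypts and leave the cell cycle as they move onto the villi, and H3K4me3 marks the start of genes that are transcribed or held ready for transcription, above all at CpG-rich promoters.

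The unit throughout is the deposited signal, namely coverage per base scaled to 10000000 tags per library, averaged within 1000 bp on each side of a start. Depth was 1430000 and 4790000 tags in WT replicates 1 and 2 and 3700000 and 5470000 tags in APC replicates 1 and 2. In WT replicate 1 a signal of 1.05 over this window corresponds to 3 fragments, so low values in that library have a large counting error. APC replicate 1 stood apart from the other libraries. Of its signal 43.3% fell into enriched regions, which were drawn on the mean of all 4 libraries at 5 times its genome-wide mean, against 11.9% to 22.6% in the others, and its median tested promoter had a signal of 13.2, against 3.06 to 4.53, while its background far from genes was the lowest at 0.190, against 0.268 to 0.314. Tested promoters are the 9930 whose signal, averaged over all libraries, reached a minimum of 2. The labelled cell type was checked on marker promoters. Of 12 enterocyte genes 10 passed that minimum, led by Vil1, whereas none of 8 immune, 8 mesenchymal and 8 genes of other tissues did, and 1 of 8 secretory genes did. All 8 proliferation genes and 5 of 8 crypt and stem cell genes passed it too. The summed signal over the immune genes was 5.52 and 4.81 in WT against 9.38 and 6.80 in APC, that over the mesenchymal genes was 3.83 and 4.24 against 6.38 and 6.44, that over the crypt and stem cell genes was 16.4 and 9.88 against 43.0 and 17.2, and that over the proliferation genes was 31.9 and 25.8 against 107 and 38.3. Both APC libraries were above both WT libraries in these 4 sums. They were also above in the sum over the secretory genes, at 9.44 and 5.40 in WT against 15.1 and 9.49 in APC. The sum over the enterocyte genes was 72.2 and 40.6 in WT against 192 and 52.1 in APC, so the groups overlapped. The sum over the genes of other tissues was lower in both APC libraries, with 5.50 and 5.01 in WT against 2.999 and 4.38 in APC. Among single promoters the share with both APC libraries above both WT libraries was 26% of all promoters and 38.5% of the tested ones. No such share was taken for sums over lists of genes. The mean signal of single immune genes ran from 0.352 (Lyz2) to 1.31 (Cd3e) and of mesenchymal genes from 0.286 (Pdgfra) to 1.77 (Vim). In WT replicate 1 the signal was 0 at Ptprc, Cd52, Col1a1, Col3a1 and Pdgfra, and in APC replicate 1 it was 0 at Lyz2. The part of such cells in the differences between genotypes was not tested, and more cells with the mark cannot be told apart from more of the mark per cell.

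The members spanned much of the range of promoters at their 5′ ends. Cdkn1b, whose product p27 holds differentiated cells out of the cycle, had the highest mean signal of 12.3, above 97.1% of all promoters, and Cdkn1a the lowest at 0.824. In between came Cdk4 at 7.08, Cdkn2b at 6.32, Rb1 at 4.57, Cdkn2a at 4.18, Cdk6 at 3.72, Ccnd1 at 2.48, Ccnd3 at 2.06 and Ccnd2 at 1.44. Cdkn1b ranked first in each of the 4 libraries, and Cdk6 was above Ccnd1 in all 4. The order of the other neighbours was not the same in every library. Cdkn2a exceeded Cdk6 in 2 of 4 libraries, and each of the remaining neighbours exceeded the next in 3 of 4. The 3 D-type cyclins were all below the median tested promoter of the same library in all 4 libraries. By the minimum of 2, Ccnd3 lay just inside, and Ccnd2 and Cdkn1a lay outside. The plot of the members by library shows this order beside the median tested promoter and the background.

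**Figure D1:**
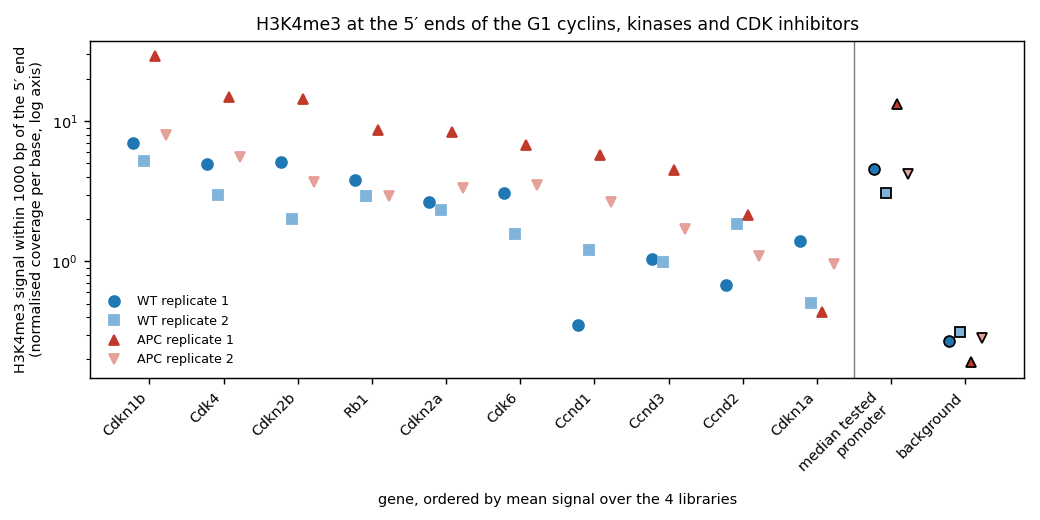
H3K4me3 signal within 1000 bp of the 5′ end of each member on a log axis, 1 point per library, with the median tested promoter and the background of the same libraries at the right. Cdkn1b is highest in every library, APC replicate 1 is the highest library at every member but Cdkn1a, and Cdkn1a lies near the background.

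At Cdkn1b the signal was 6.96 and 5.20 in WT replicates 1 and 2 and 29.2 and 7.91 in APC replicates 1 and 2. Both APC libraries were above both WT libraries, and APC replicate 1 was 3.69 times APC replicate 2, against a ratio of 3.16 at the median tested promoter. The mark covered a region from 900 bp upstream to 3099 bp downstream of the 5′ end, 4000 bp wide, which is wider than 92.9% of the regions at promoters. A second region lay upstream, from -3800 to -2801 bp relative to the 5′ end, where no annotated start of another gene was found. Its signal was 0.697 and 1.35 in WT and 11.7 and 3.37 in APC. Regions were drawn on the mean of the 4 libraries, to which APC replicate 1 gave most here. The region was also singled out after its values were seen, so the order of the groups is not read as a difference between genotypes. The bases before the Cdkn1b start, from RefSeq on GRCm38.p6, are shown because this is the strongest of the 10 promoters. They lie at chr6:134920151-134920400 on the plus strand, printed 5′ to 3′ up to the base before the start, with capitals for the GC box, the word GGGCGG or its complement.
Cdkn1b: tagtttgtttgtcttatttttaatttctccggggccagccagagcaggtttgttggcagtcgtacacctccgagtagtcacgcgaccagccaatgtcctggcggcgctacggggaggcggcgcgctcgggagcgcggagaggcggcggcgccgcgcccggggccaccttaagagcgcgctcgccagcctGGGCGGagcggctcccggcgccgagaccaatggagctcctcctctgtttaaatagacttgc
The window of 250 bases before to 50 bases after the start held 30 CpG dinucleotides, an observed over expected ratio of 1.04, against a median of 0.384 over all 32851 windows in the RefSeq table. A GC box was found in 35.7% of those windows, on either strand.

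Cdk4, the kinase partner of the D-type cyclins, had signals of 4.97 and 2.97 in WT and 14.9 and 5.52 in APC at its 5′ end, and again both APC libraries were higher. The mark lay mainly downstream of the start. The mean over the 1000 bp before the start was 2.84 and that over the 1000 bp after it was 11.3. The RefSeq bases before the Cdk4 start at chr10:127063285-127063533, plus strand, are shown because 4 copies of one motif lie in them. Capitals mark the E-box CACGTG, bound by Myc with Max and by related factors, the GC box, and CTTTGAT, one of the words searched for TCF/LEF factors, here on the other strand.
Cdk4: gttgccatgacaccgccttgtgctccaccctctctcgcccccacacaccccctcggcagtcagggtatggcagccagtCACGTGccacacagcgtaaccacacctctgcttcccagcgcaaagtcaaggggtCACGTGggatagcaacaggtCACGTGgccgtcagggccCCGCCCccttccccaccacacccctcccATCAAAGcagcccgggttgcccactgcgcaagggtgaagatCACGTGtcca
The E-box was found in 7.15% of all windows, the TCF/LEF words CTTTGAT and CTTTGAA in 8.65%. These matches are a description of the letters, and binding was not measured.

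A locus on chromosome 4 holds Cdkn2b and Cdkn2a side by side. At Cdkn2b, which encodes p15Ink4b, the signal was 5.12 and 2.02 in WT and 14.5 and 3.70 in APC, so that APC replicate 2 lay between the WT libraries. The enriched region ran from -361 to 5238 bp relative to the 5′ end, 5600 bp in all, the widest of the members and wider than 97.8% of those at promoters. Over that region the signal was 3.74 and 1.72 in WT and 21.8 and 3.69 in APC. All 4 values were above the background of their libraries, and that of APC replicate 1 was the highest.

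Cdkn2a has 2 first exons with separate promoters, one for p19Arf at the 5′ end of the gene and one for p16Ink4a further downstream, and p19Arf stabilizes p53. The mark was present at the first and near the background at the second. At the 5′ end the signal was 2.65 and 2.34 in WT and 8.41 and 3.33 in APC, which is 7.45 to 44.3 times the background of each library. At the start 12461 bp downstream, that of transcript Cdkn2a-201, it was 0.349 and 0.627 in WT and 0.540 and 0.457 in APC, or 1.30 to 2.85 times the background. These low values rest on 1 to 6 fragments per library. On the log2(signal + 1) scale the downstream start was lower by 1.66 ± 0.67 (SD, n = 4 libraries), and it was the lower start in 4 of 4 libraries. A two-sided exact sign-flip permutation test gave p = 0.125, the smallest value that 4 pairs allow. That test was run at the 8 members with a start this far away, and its Benjamini-Hochberg adjusted p at Cdkn2a was 0.143. Cdkn2a has 1 start this far from its 5′ end, so none was chosen by its signal. No enriched region other than the one at the 5′ end was found in the gene. That region lay mostly upstream of the annotated start, from -1547 to 852 bp relative to it, with the highest bin at -600 to -501 bp in all 4 libraries. Both promoters are shown, since the contrast between them is that of the mark, as RefSeq bases of the minus strand on GRCm38.p6. The first, at chr4:89294654-89294869, stops at the GENCODE 5′ end, 34 bases short of the RefSeq start, and the second is chr4:89282193-89282442. Capitals mark the GC box and the E2F word TTTCCCGC in the first, and the printed bases of the second have neither.
Cdkn2a, p19Arf promoter: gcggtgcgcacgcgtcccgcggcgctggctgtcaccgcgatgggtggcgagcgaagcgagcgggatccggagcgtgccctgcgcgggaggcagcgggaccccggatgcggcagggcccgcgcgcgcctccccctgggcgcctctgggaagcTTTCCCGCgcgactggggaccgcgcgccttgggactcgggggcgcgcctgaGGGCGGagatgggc
Cdkn2a, p16Ink4a promoter: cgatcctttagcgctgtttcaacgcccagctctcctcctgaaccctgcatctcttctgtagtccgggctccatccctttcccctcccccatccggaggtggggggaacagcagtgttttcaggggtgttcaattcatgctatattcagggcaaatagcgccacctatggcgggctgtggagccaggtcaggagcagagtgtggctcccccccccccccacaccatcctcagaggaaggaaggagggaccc
The window at the p19Arf start had 45 CpG, 3 GC boxes and a GC content of 77%. That at the p16Ink4a start had 12 CpG, 1 GC box, which lies after the start, and a GC content of 60.3%. An E2F word, any of TTTCCCGC, TTTCGCGC, TTTGCCGC and TTTGGCGC on either strand, was found in 2.27% of all windows, and among the 10 member windows in that of p19Arf alone. The word TGACGTCA of the CRE, present in 1.79% of all windows, was found among them at Cdkn2b alone.

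**Figure D2:**
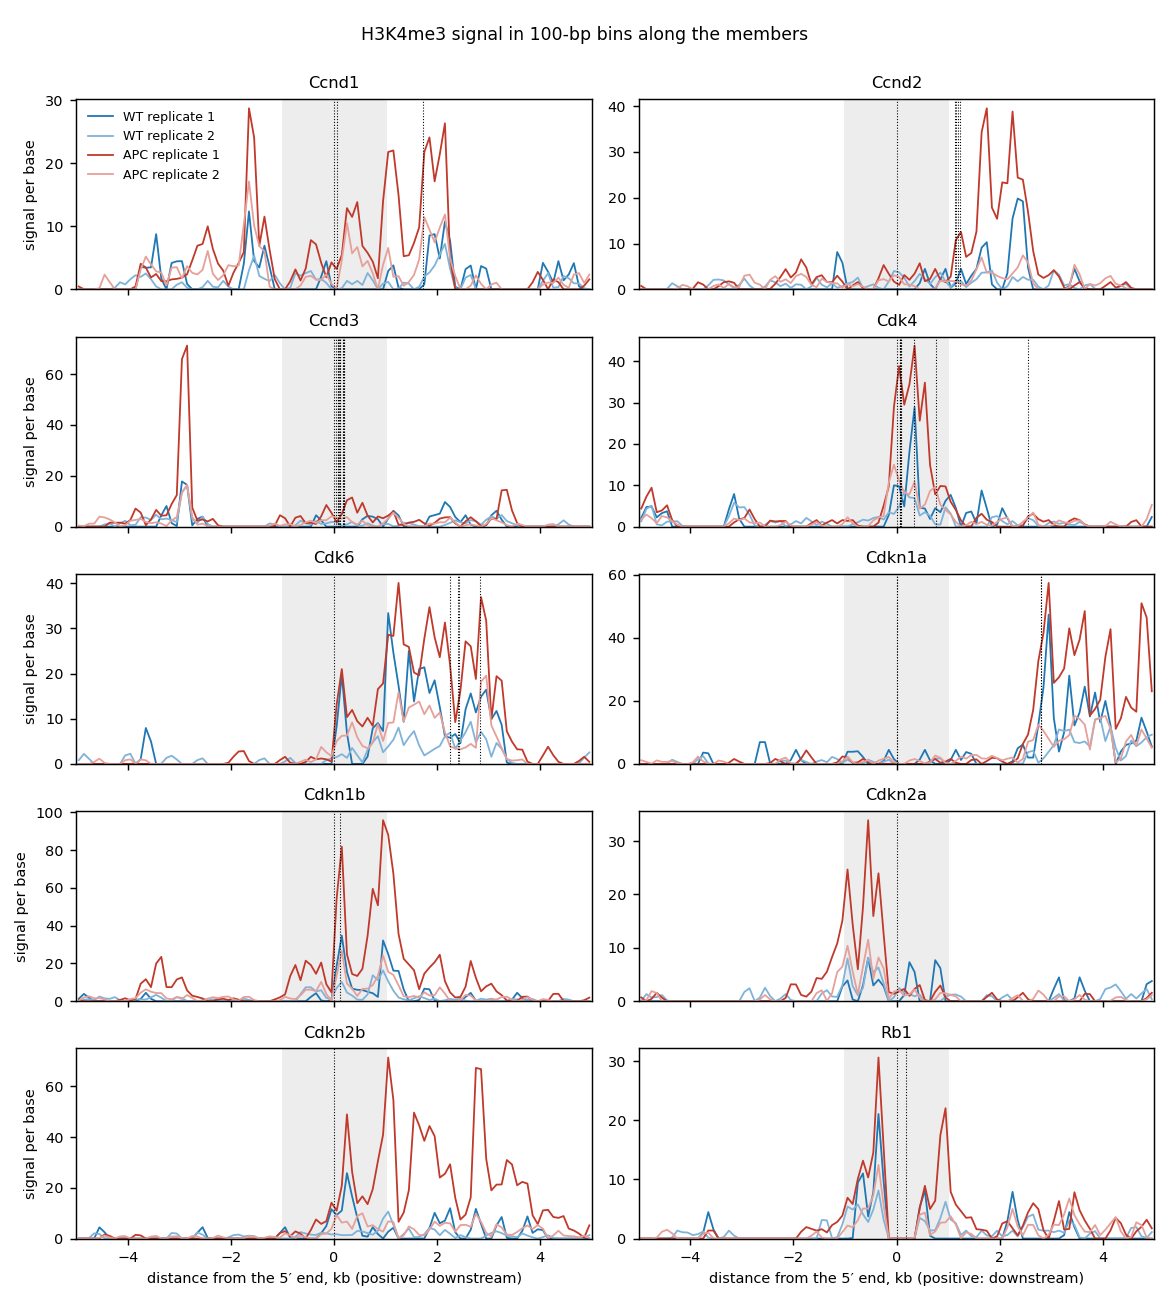
H3K4me3 signal in 100-bp bins from 5000 bp upstream to 5000 bp downstream of the 5′ end of each member, 1 line per library, with the window of 1000 bp on each side in grey and annotated transcript starts as dotted lines. Most of the mark lies outside the grey window at several members, among them Cdkn1a, Cdk6, Ccnd2, Ccnd1 and Cdkn2b. It lies mainly upstream of the start at Cdkn2a in every library but WT replicate 1, and is split by a stretch at 0 at Rb1. In WT replicate 1 the Cdkn2a mean was 2.51 over the 1000 bp before the start and 2.79 over the 1000 bp after it.

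In several members most of the mark did not lie at the annotated 5′ end of the gene. Of the 10 members 8 have an annotated start more than 1000 bp away from the 5′ end, and at 5 of these 8, namely Ccnd1, Ccnd2, Ccnd3, Cdk6 and Cdkn1a, the highest such start had more signal than the 5′ end in 4 of 4 libraries. The start compared was the highest by mean signal of the same libraries among 1 (Ccnd1) to 8 (Ccnd3) such starts. These differences are therefore a description, and no p-value is read from them. At Ccnd1 and Ccnd2 the starts compared are 1728 and 1232 bp apart, so their windows of 1000 bp on each side share bases.

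The largest of these contrasts was at Cdkn1a. Its 5′ end had signals of 1.39 and 0.504 in WT and 0.435 and 0.961 in APC, 1.60 to 5.20 times the background and from 3.23 to 10.5 fragments per library. At the starts 2793 and 2805 bp downstream, those of Cdkn1a-201 and Cdkn1a-205, the signal reached 11.3 and 3.94 in WT and 21.8 and 6.67 in APC at the second of them. The mean over the 4 libraries was 10.9 there against 0.824 at the 5′ end, and the log2(signal + 1) difference was 2.51 ± 1.02 (SD, n = 4 libraries). The enriched region around these starts was 3800 bp wide with a mean signal of 11.3, against 11.2 and 9.95 over the regions at Cdk6 and Cdkn1b. A start of AC167363.2, a transcript annotated on the other strand and named after the profile was seen, lies 680 bp from the nearest Cdkn1a start, and the mark carries no strand by which to separate the genes. The bases before the 5′ end of Cdkn1a are printed because they carry almost no mark, and lie at chr17:29090729-29090975 on the plus strand (RefSeq, GRCm38.p6), with none of the words searched in them.
Cdkn1a, 5′ end: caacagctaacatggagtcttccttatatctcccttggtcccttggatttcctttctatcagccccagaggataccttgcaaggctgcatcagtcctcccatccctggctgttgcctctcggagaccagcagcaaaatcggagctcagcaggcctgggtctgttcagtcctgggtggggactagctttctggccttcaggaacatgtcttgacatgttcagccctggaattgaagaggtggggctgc
The RefSeq window there held 2 CpG, a ratio of 0.0892, and the window at the downstream start held 23 CpG, a ratio of 0.785, and 2 GC boxes.

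Cdk6 had 3.05 and 1.58 in WT and 6.75 and 3.49 in APC at its 5′ end, but 13.3 and 5.02 in WT and 24.3 and 9.35 in APC at the start of Cdk6-204, 2247 bp downstream. The difference between the starts was 1.49 ± 0.32 (log2, SD, n = 4 libraries). Its region of 3400 bp began 16 bp after the 5′ end and covered the downstream starts, so the signal within 1000 bp of the 5′ end was the edge of that region.

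**Figure D3:**
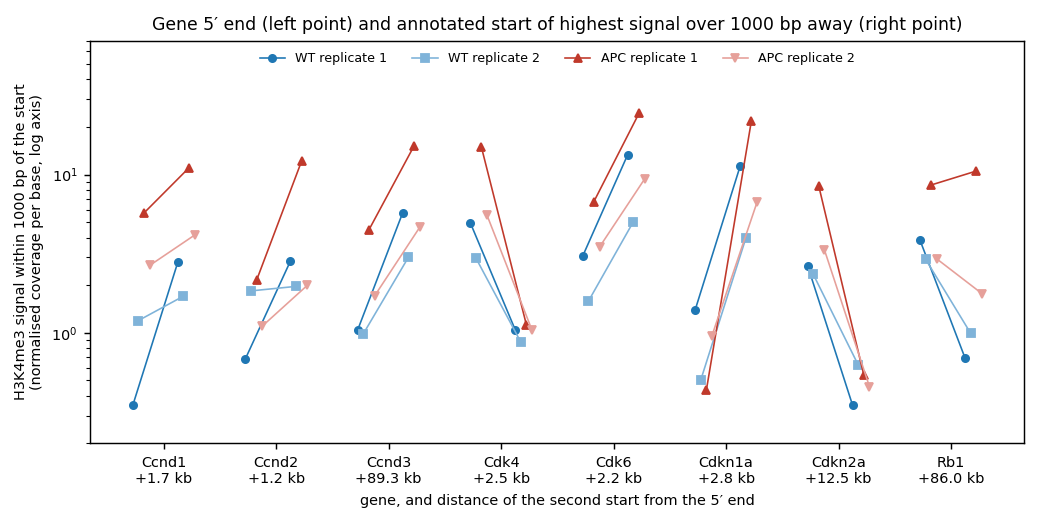
H3K4me3 signal within 1000 bp of the gene 5′ end (left point of each line) and of the annotated start with the highest signal among those over 1000 bp away (right point), on a log axis, 1 line per library, for the 8 members with such a start. Lines rise in all 4 libraries at Ccnd1, Ccnd2, Ccnd3, Cdk6 and Cdkn1a, and fall in all 4 at Cdk4 and Cdkn2a.

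The 3 D-type cyclins shared this displacement. Ccnd1, a target of Wnt signalling in many tissues, had 0.349 and 1.20 in WT and 5.72 and 2.66 in APC at its 5′ end. The APC libraries were above the WT libraries, but WT replicate 1 held 0.997 fragments by this scaling in that window and WT replicate 2 held 11.4. At the start 1728 bp downstream, that of Ccnd1-202, the signal was 2.79 and 1.70 in WT and 11.03 and 4.15 in APC. A separate region from -3775 to -1176 bp relative to the Ccnd1 5′ end held the highest bin of the profile averaged over the libraries, 15.3 at -1700 to -1601 bp, and no other gene starts within 5000 bp of the 5′ end. That region was singled out after its values were seen.

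Ccnd2 had 0.682 and 1.84 in WT and 2.14 and 1.10 in APC at its 5′ end, with overlapping groups. At the start of Ccnd2-205, 1232 bp downstream, the values were 2.82 and 1.96 in WT and 12.1 and 1.99 in APC. APC replicate 1 was thus the sole library well above the others, and the bins of highest signal lay further into the gene, where the antisense transcript 9330179D12Rik starts 2567 and 2804 bp from the Ccnd2 5′ end. That gene was named after the profile was seen.

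Ccnd3, the third D-type cyclin, had 1.05 and 0.987 in WT and 4.48 and 1.71 in APC at its 5′ end. A second group of starts lies 88385 to 89705 bp downstream, and at Ccnd3-217 the signal was 5.74 and 2.996 in WT and 15.1 and 4.63 in APC, higher than at the 5′ end by 1.33 ± 0.36 (log2, SD, n = 4 libraries). The strongest mark near the 5′ end, 30.1 in the bin from -2900 to -2801 bp, lay at the starts of Taf8, a gene on the other strand that encodes a subunit of a general transcription factor and was named after the profile was seen. It falls outside the window of 1000 bp.

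Rb1, the target of the cyclin D kinases, had 3.84 and 2.91 in WT and 8.59 and 2.93 in APC, so the groups overlapped at APC replicate 2. The mark lay on both sides of the start with a gap in between. A region of 900 bp ended 179 bp before the 5′ end, another of 800 bp began 422 bp after it, and the 4 bins from 100 bp before to 299 bp after the start were at 0 in all 4 libraries. The GC contents of these 4 bins were 82%, 65%, 86% and 83% in order, a mean of 79%, against 60.4% in the other bins of the window. Over the bins within 1000 bp of all tested promoters, 16.5% of the 5298 bins with a GC content of 80% or more were at 0 in all 4 libraries, against 2.59% of the 8776 bins with 75% to 80% and 0.288% of the 38946 bins with 60% to 70%. The bin of 65% in the gap lies between bins of 82% and 86%. Fragments of 150 to 500 bp were kept, so any fragment that covers this 100-bp bin reaches into its neighbours. The share of its own GC class is therefore not a reference for it. The part of GC content in the gap at Rb1 was not tested, and the mean signal of Rb1 includes the gap. Within the gene the start of Rb1-206, 86036 bp downstream, had 0.693 and 0.992 in WT and 10.5 and 1.77 in APC. APC replicate 1 was the one library that was far from the others. This start was taken as the highest of 4 such starts by the mean of the same libraries. The order of the groups there is therefore not read as a difference between genotypes.

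**Figure D4:**
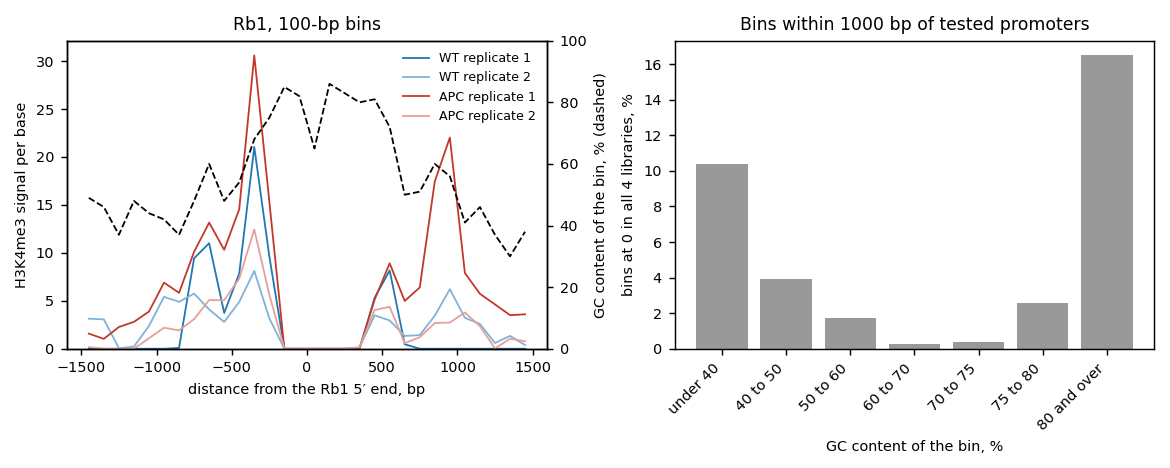
Left, H3K4me3 signal (solid lines, 1 per library) and GC content (dashed line, right axis) in 100-bp bins around the Rb1 5′ end. Right, share of 100-bp bins within 1000 bp of tested promoters that were at 0 in all 4 libraries, by GC content of the bin, which is 16.5% at 80% GC and over.

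The comparison of genotypes asked whether the mark at these genes differed in normal-appearing ApcMin/+ villi. At the 5′ ends both APC libraries were above both WT libraries at 6 of 10 members, namely Ccnd1, Ccnd3, Cdk4, Cdk6, Cdkn1b and Cdkn2a, and at none were both below. Over all promoters the share with both APC libraries above was 26% and with both below 7.17%, and over the tested promoters, which include those 6 genes, the share above was 38.5%. The mean signal over the 10 members was 2.58 ± 0.60 in WT and 6.42 ± 4.36 in APC (SD, n = 2), with p = 0.33 in a two-sided exact permutation test, the smallest that 2 against 2 libraries can give. The spread of the APC group came from the distance between its libraries, at 9.50 and 3.33.

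With limma on log2(signal + 1), 0 of the 8 members tested passed the threshold of an adjusted p of 0.05, and over all tested promoters the share called was 0%, with 132 of 9930 at an unadjusted p under 0.05. Ccnd1 was the one member among those 132. Its difference was 1.53 with a standard error of 0.60 and an adjusted p of 0.683. Ccnd1 and Ccnd3 reached the minimum of 2 through the APC libraries alone. Their means were 0.77 and 1.02 in WT and 4.19 and 3.09 in APC. The filter thus favoured a positive difference at these genes, and their tests carry no weight for its direction. Standard errors by limma were set by promoters of similar signal, not by the libraries at the gene alone. The other tested members differed by 0.50 (Rb1) to 1.22 (Cdkn1b), and their adjusted p values by limma were 0.683 to 0.685. The median difference was 0.90 over the 10 members and 0.85 over all tested promoters. Cdkn1a and Ccnd2, under the minimum, differed by -0.18 and 0.23, with adjusted p of 0.835 and 0.842 by limma without the minimum. Without APC replicate 1 the median difference of the members was 0.33 and that of the tested promoters 0.13. Without APC replicate 2 all 8 tested members passed with APC higher, and so did 65.2% of the tested promoters.

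Since the libraries differed in the median promoter by 0.85 between genotypes, each member was also read relative to the median tested promoter of its library. The members then lay on both sides of 0. Ccnd1 was at 0.67 with a standard error of 0.60, Cdkn1b at 0.37 with 0.30, Cdk4 at 0.21 with 0.29, Cdkn2b at 0.13 with 0.30, Ccnd3 at 0.08 with 0.64, Cdkn2a at 0.02 with 0.35, Cdk6 at 0.01 with 0.38 and Rb1 at -0.36 with 0.33. None of them passed the test, with adjusted p values of 0.9995 by limma for each. Over all tested promoters 12 of 9930, or 0.121%, passed in this reading. In this reading both APC libraries exceeded both WT libraries at Cdk4 and Cdkn1b, against 13.1% of the tested promoters, and both were lower at Rb1, against 14.3%. Of the 8 tested members 7 were within the 5th to 95th percentile of the tested promoters, from -0.51 to 0.47, with Ccnd1 outside it. When each gene was read at the protein-coding start of its highest signal, an alternative that also brought Ccnd2 and Cdkn1a over the minimum, all members but Ccnd1 were within 0.5 of the median promoter, with Cdkn1a at -0.13 and Ccnd2 at 0.01. Combining this start with the median promoter was chosen after the data had been seen.

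**Figure D5:**
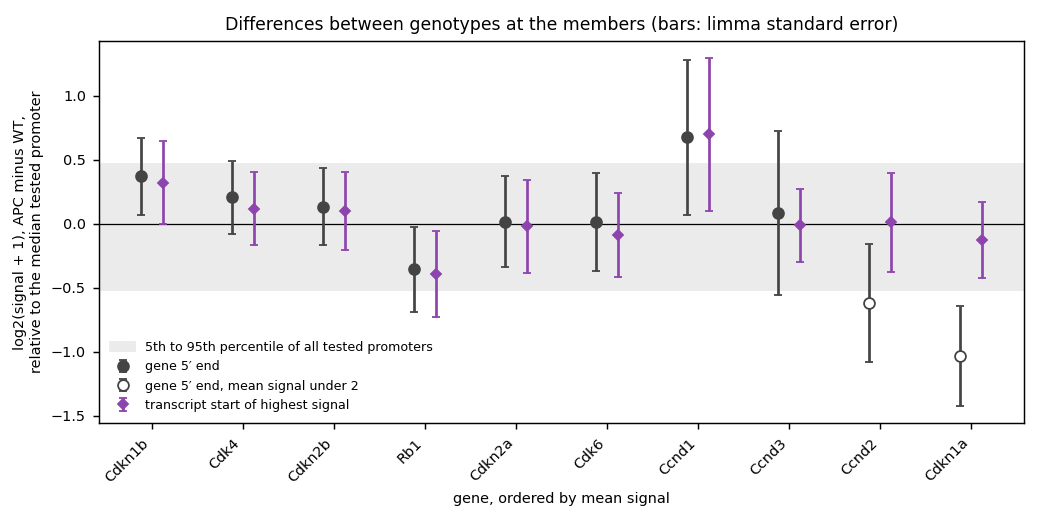
Difference APC minus WT in log2(signal + 1) relative to the median tested promoter, n = 2 libraries per group. Bars are limma standard errors, which draw on promoters of similar signal rather than on each gene's own spread. Circles show the gene 5′ end, open where the mean signal was under 2, and diamonds the protein-coding start of highest signal. The grey band is the 5th to 95th percentile of the tested promoters. Ccnd1 is the member above it, with error bars that reach into the band, and the open points of Ccnd2 (-0.62) and Cdkn1a (-1.03) lie below it. Those 2 genes are under the minimum, so the band is not drawn from promoters like them. Before centring, the median difference was 0.35 over all promoters and 0.85 over the tested ones, so promoters of low signal tend to lie under 0 here.

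Other genes of the G1 to S transition were read from a list of 41, which holds cyclin E and A, the E2F and DP factors, the pocket proteins, the DREAM complex, the CDK-activating kinase, the ubiquitin ligases of this step and p53. Of these 38 passed the minimum and 0 were called by limma, 0 also at an unadjusted p under 0.05, with adjusted p of 0.683 to 0.799. Both APC libraries were above both WT libraries at 16 of the 41 and below at 1, against 26% and 7.17% of all promoters, and the share above among the tested promoters was 38.5%. The median difference was 0.94, and relative to the median promoter it was 0.09. Highest in mean signal were Lin52 (13.3) and Rbbp4 (11.8), which belong to the DREAM complex, Trp53 (12.9), and Skp1a (10.9) and Cks1b (10.2), which serve the SCF ubiquitin ligase. The mean of Cdkn1b, 12.3, lay within the range of these 5 genes. Among the genes over the minimum, the largest positive differences relative to the median promoter were at E2f4 (0.43, SE 0.33), E2f2 (0.40, SE 0.32) and Lin37 (0.37, SE 0.30), and the largest negative at Ccne1 (-0.66, SE 0.46), E2f1 (-0.39, SE 0.45) and Cdkn1c (-0.39, SE 0.58), with adjusted p of 0.9995 by limma for each. At Ccne1, cyclin E1, the signal was 3.49 and 1.55 in WT and 3.62 and 2.24 in APC. The minimum was missed by E2f7, Tfdp1 and Skp2, with mean signals of 1.61, 1.31 and 0.676 and differences relative to the median promoter of -0.48, -0.52 and -1.003. That median is of tested promoters, and promoters of low signal tend to lie under it. Before centring, the median difference was 0.35 over all promoters and 0.85 over the tested ones.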

How the data were processed

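H3K4me3 CUT&RUN libraries of villus cells from 2 WT and 2 APC mice were used. Per the study's methods, reads were aligned with Bowtie2 to mm10, duplicates were taken out with Picard, fragments were selected by size and mapping quality, and tracks were made with HOMER. The authors deposited signal tracks, coverage per base scaled to 10000000 tags, with replicates not pooled and no control subtracted. From these, signal was averaged within 1000 bp of each GENCODE M21 protein-coding 5′ end. Promoters with a mean of at least 2 were tested in R 4.3.3 with limma 3.58.1 (trend) on log2(signal + 1), with Benjamini-Hochberg adjustment at 0.05. The standard errors followed the trend over promoters of similar signal, with 19860 total degrees of freedom in the fit without centring. They are not the spread of each gene's own libraries. Fold changes on this scale understate the change at low signal. Fragment numbers were derived from the summed signal and cover counting error only. Enriched regions were 100-bp bins where the mean of the 4 libraries was at least 5 times its genome-wide mean, joined over gaps of up to 500 bp and at least 300 bp long. Scripts were tested on simulated data. Genes named by rule were the members, their starts over 1000 bp from the 5′ end, and, of the pathway list, the 5 of highest signal, the 3 with the largest difference in each direction relative to the median promoter, and those under the minimum. The members and lists were chosen with earlier results of these data known. That each library came from its own mouse is assumed, and 2 libraries per group leave the p-values with little precision.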

Additional observations from a re-analysis of the deposited data

How the results depend on the processing

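Without APC replicate 2 limma called 8 members, 31 of the pathway genes and 6479 promoters, and it called no member in any other fit run. With 1 library left in a group, that library is assumed to vary like the other group. Promoters called numbered 12 on centring on the median promoter, 2 after quantile normalization, 1 with the replicate number as a block and 0 to 6479 without 1 library, or, centred, 2, 18, 0 and 30 without WT replicate 1, WT replicate 2, APC replicate 1 and APC replicate 2. The numbers were not shown to pair the mice (r = 0.196 over 9930 promoters, 2 pairs), so the block is given here alone. The median member difference, 0.90, was 0.049 on centring, 0.18 after quantile normalization (8 tested members), 1.13 and 0.48 with pseudocounts of 0.1 and 5 (2.40 and 0.65 at Ccnd1, against 1.53), -0.00087 with centring at the protein-coding start of highest signal (chosen after seeing the data), 0.33 to 1.44 without 1 library and, in the order above, -0.010, 0.058, 0.20 and -0.15 with centring. Members whose groups did not overlap numbered 6, then 3 on centring and 3 at the highest start. They numbered 2 with both and 2 at a minimum of 5 (3 members tested). Uncentred, 26% of all promoters had both APC libraries above and 7.17% both below. Centred, these shares were 13.1% and 14.3% of the tested promoters. For the other settings no share over all promoters was taken, so those counts are given without a reading. Signs turned at Ccnd2 (-0.62) and Rb1 (-0.36) on centring, at Rb1 after quantile normalization (-0.36), and at Cdkn1a within 2000 bp (0.037) and at its highest start (0.76). With centring at the highest start they turned at Ccnd3 (-0.012), Cdk6 (-0.088), Cdkn2a (-0.019) and Rb1 (-0.39). Without 1 library, centred or not, differences ran from -1.22 to 0.61 at Ccnd2, -0.14 to 1.44 at Ccnd3, -0.32 to 1.26 at Cdk6, -1.98 to 0.16 at Cdkn1a (-0.51 uncentred without WT replicate 2), -0.15 to 1.43 at Cdkn2a, -0.15 to 1.85 at Cdkn2b and -0.44 to 1.14 at Rb1. Besides the ends of these ranges, uncentred values with a turned sign were -0.14 and -0.057 at Ccnd2 without WT replicate 1 and APC replicate 1, 0.048 at Cdkn1a and -0.15 at Rb1 without APC replicate 1, and centred ones were, at Ccnd2, -0.020 without WT replicate 2, -0.18 without APC replicate 1 and -1.06 without APC replicate 2, at Ccnd3 -0.12 without WT replicate 1, at Cdk6 -0.089 without WT replicate 2, at Cdkn2a -0.14 without WT replicate 1, and at Rb1 -0.43 and -0.29 without WT replicates 1 and 2 and -0.27 without APC replicate 1. The cause was not tested. In WT replicate 1 the 5′ ends of Ccnd1, Ccnd2, Ccnd3 and Cdkn1a held 0.997, 1.95, 2.99 and 3.99 fragments, which limits their values. Region widths at the 5′ ends, 900 to 5600 bp, were 800 to 4300 bp at 10 times the genome-wide mean and 600 to 3400 bp without joining of bins, with 8 members left in each.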
